A study of Mus musculus with 9 samples.

Results

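The genes described here are the replication-dependent histone genes of the mouse, taken as every row of the deposited table whose symbol is H2ac, H2bc, H3c or H4c followed by a number, or H1f1 to H1f5. The rule found 64 of 56691 genes: 5 of linker histone H1, 18 of H2A, 17 of H2B, 12 of H3 and 12 of H4. On the mm39 assembly used by the table, 54 of them lie on chromosome 13 and 10 on chromosome 3. The choice used symbols and no measured value.

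The libraries came from NIH/3T3, an immortalized mouse embryonic fibroblast line labelled wild type, grown in DMEM with fetal bovine serum. There were 3 groups of 3 libraries: control cells with no treatment given in the label, cells irradiated with UVA at 10 J/cm2 (the UVA group, titled MOCK), and cells that received the same UVA dose and α-arbutin, a glucoside of hydroquinone (the co-treated group). The study asked whether α-arbutin protects irradiated cells, above all in DNA repair and collagen synthesis. Not given in the sources used here are the α-arbutin dose and timing, the harvest time and the way RNA was enriched. Nothing in the labels says whether the libraries of a group came from separate cultures, so the p-values measure the spread between these libraries, which may be technical.

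Replication-dependent histones package newly copied DNA: H2A, H2B, H3 and H4 form the nucleosome core and H1 binds the linker DNA between nucleosomes. Their genes sit in clusters, are transcribed mainly in S phase under the coactivator NPAT, and most of their mRNAs end just after a conserved stem-loop in place of a poly(A) tail. The stem-loop binding protein SLBP and the U7 small nuclear ribonucleoprotein direct that cut, while some histone genes also make longer, polyadenylated transcripts that run past the stem-loop.

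The stem-loop was searched in the annotated transcripts because reads on these genes can come from either kind of end. The pattern (GG, any 2 bases, CTTTT, any base, A, any 3 bases, CC, on the transcript strand only) was found in the GENCODE vM21 transcripts of 40 of the 64 genes: 3 H1, 10 H2A, 9 H2B, 8 H3 and 10 H4. Among all annotated genes, 173 of 55450 (0.312%) held it, and 40 of those 173 are genes of the set. The sequences of 6 genes whose values are given further on are printed 5′ to 3′ as DNA, with the stem-loop in capitals and 5 flanking bases on each side in lower case.
H1f2: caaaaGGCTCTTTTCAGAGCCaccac
H2bc8: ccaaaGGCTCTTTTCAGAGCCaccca
H3c4: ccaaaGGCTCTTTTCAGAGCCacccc
H3c6: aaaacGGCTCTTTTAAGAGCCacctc
H4c8: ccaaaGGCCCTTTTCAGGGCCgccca
H4c9: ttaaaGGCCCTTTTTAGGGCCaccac
The form of H1f2, H2bc8 and H3c4 was shared by 24 genes of the H1, H2A, H2B and H3 classes. The form of H3c6 was found in 5 genes, 3 of H3 and 2 of H2B. The H4 genes used other stems: 6 had the form of H4c8, 2 that of H4c9, and 2 the form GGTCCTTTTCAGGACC. The remaining H2A gene with a match had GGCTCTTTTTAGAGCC. No match in a transcript model, as for H2bc4 and H2bc21, says only that these letters are not in the annotated transcript.

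Upstream sequence also divided the classes. RefSeq promoters (GRCm38.p6) were available for 57 of the 64 genes, 58 promoters in all, and the 250 bases before the start were searched on both strands. The octamer ATTTGCAT, bound by POU factors such as OCT1, was present in 6 of 17 H2A and 7 of 15 H2B promoters and in no promoter of H1, H3 or H4. It was present in 22.4% of the histone promoters and in 1.6% of all 32851 promoters. CCAAT was present in 82.8% against 33.8%, and in only 3 of 11 H4 promoters. TATAAA was present in 48.3% against 12.4%. In 13 H2A-H2B pairs the gene starts lie 175 to 305 bases apart, so the promoters of a pair share much of their sequence. A match can thus count for both genes, and these shares are not independent. The H2bc8 sequence below can include bases of its H2A neighbour H2ac8, 175 bases away. The upstream 250 bases of an H2B, an H3 and an H4 gene show the difference, 5′ to 3′ on the gene's strand, with matches on either strand in capitals. The coordinates of these 3 sequences are on GRCm38.
H2bc8 (chr13:23571150-23571399, plus strand): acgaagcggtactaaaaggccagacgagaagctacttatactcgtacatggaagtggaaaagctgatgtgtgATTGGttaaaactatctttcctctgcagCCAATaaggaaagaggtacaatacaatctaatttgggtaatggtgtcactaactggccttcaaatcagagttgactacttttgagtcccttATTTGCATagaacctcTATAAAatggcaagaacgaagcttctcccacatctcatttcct
H3c4 (chr13:23575513-23575762, plus strand): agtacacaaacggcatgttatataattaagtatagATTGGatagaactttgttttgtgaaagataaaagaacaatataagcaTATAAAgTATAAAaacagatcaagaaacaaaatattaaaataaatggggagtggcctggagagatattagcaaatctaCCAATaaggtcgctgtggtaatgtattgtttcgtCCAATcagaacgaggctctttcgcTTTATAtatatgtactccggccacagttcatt
H4c9 (chr13:22041363-22041612, minus strand): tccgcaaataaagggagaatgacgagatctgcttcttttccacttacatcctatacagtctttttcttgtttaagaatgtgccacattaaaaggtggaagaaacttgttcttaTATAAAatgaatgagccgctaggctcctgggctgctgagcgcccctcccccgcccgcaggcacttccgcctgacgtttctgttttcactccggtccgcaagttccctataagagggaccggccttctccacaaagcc
H2bc8 carried the octamer just before its TATAAA and CCAAT on both strands, H3c4 had several CCAAT and TATAAA matches and no octamer, and H4c9 had 1 TATAAA match and neither of the other motifs. A match is a description of the letters and not a measured binding site.

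The libraries held few histone reads. Library totals lay between 16.3 and 20.86 (in 1e6 counts), and the 64 genes together received 250, 256 and 354 counts in controls, 473, 374 and 532 under UVA and 264, 281 and 344 after co-treatment. That is 0.00145 to 0.00265% of a library. Across all 9 libraries, 57 of the 64 genes had at least 1 count, 7 had none (H2ac1, H2ac18, H2ac19, H2bc1, H2bc18, H3c13 and H3c14) and 24 had fewer than 10, the 7 included. The 4 genes with the most counts, H1f2 (822), H2bc4 (337), H2bc21 (298) and H4c9 (243), held 54.3% of the 3128 counts. Per length of transcript, as deposited FPKM (fragments per kilobase of exon and 1e6 counts), the highest mean over 9 libraries was 3.25 for H1f2, followed by 2.03 for H4c9 and 1.80 for H2bc4. The median of the 64 means was 0.166.

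Near-identical copies limit what a count of 0 can show for some of these genes. For H2ac19 and H3c14 every stretch of 50 transcript bases also occurs in another gene, for H2ac18 89.4% of them do, for H3c13 79.7%, for H2bc18 53.6%, for H2bc1 38.2% and for H2ac1 2.3%. The sources used here do not state how reads that fit several genes were counted. The share was 8.5% for H1f2, 24.8% for H3c4, 28.9% for H4c9, 30.1% for H2bc4, 45.8% for H4c8 and 0.0% for H2bc21. The values of the genes with high shares, single H2A, H2B, H3 and H4 genes in particular, are therefore uncertain as to which copy the reads came from. Of the 64 genes 24 overlap another gene of the table, most of them an unnamed gene on the opposite strand. The 24 include every H2A gene, each overlapped on the opposite strand. H1f4 and H2bc6 overlap each other on the same strand.

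The largest share of histone reads came from genes whose annotated transcript runs well past the stem-loop. The 18 genes whose model continues for over 100 bases after it held 62.4% of the counts (1953, of which H1f2 alone had 822), and 17 of the 18 had at least 10 counts. Without H1f2 the share was 49.0% of the remaining 2306 counts. The 22 genes whose model ends within 100 bases of it held 10.3%, and 12 of the 22 had at least 10 counts. The 24 genes without a match held 27.3%, most of it in H2bc4 and H2bc21. The extension was 840 bases in H1f2, 330 in H4c9, 752 in H3c4, 1861 in H2bc6 and 4884 in H1f3, and 46 in H4c8. A longer model collects more reads at the same level, and per length the gap was smaller: the median of the mean FPKM values was 0.201 with the long extension and 0.134 with the short end. The limit of 100 bases was set after the data were seen.

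**Figure D1:**
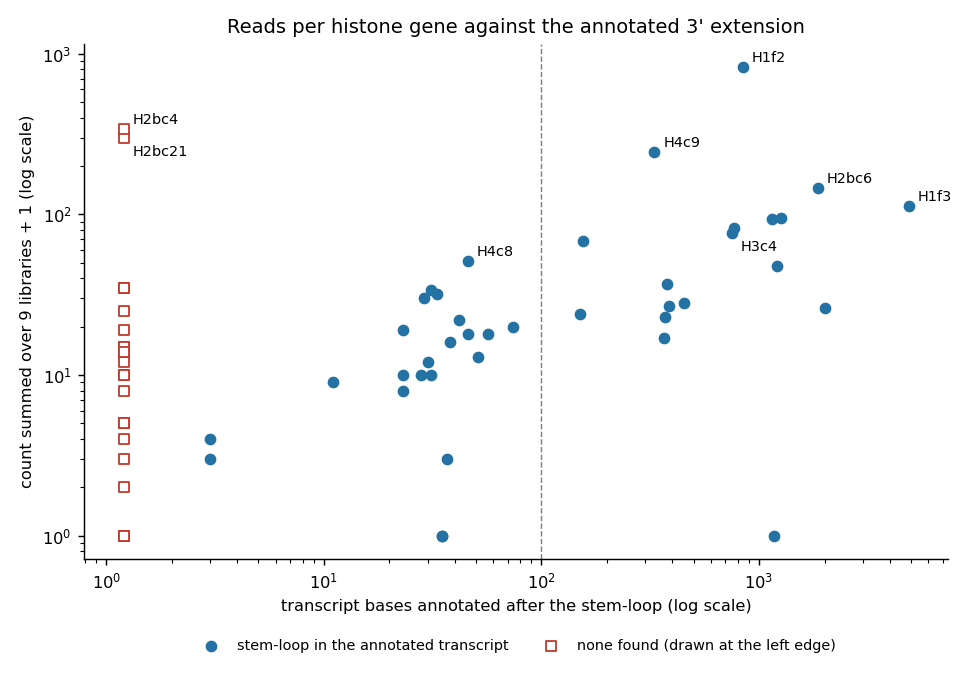
Counts of each of the 64 histone genes summed over 9 libraries, plus 1, against the number of annotated transcript bases after the stem-loop, both on log scales; squares are genes without a match, drawn at the left edge, and the dashed line marks 100 bases. H1f2 and H4c9 lie at the top of the genes with an extension, and H2bc4 and H2bc21 at the top of those without a match.

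UVA libraries held more histone reads than control libraries, and the co-treated libraries overlapped with the controls. Levels here are counts per 1e6 counts, scaled by TMM (trimmed mean of M values, a correction for library composition), called CPM. The summed level of the 64 genes was 14.5, 14.3 and 16.9 CPM in control replicates 1 to 3, 26.1, 23.1 and 26.6 in the UVA replicates and 16.1, 16.3 and 19.0 in the co-treated replicates. All UVA libraries lay above all others, and the control and co-treated libraries overlapped. The means were 15.3 ± 1.45, 25.3 ± 1.91 and 17.1 ± 1.63 (SD, n = 3), a ratio of 1.66 for UVA to control, 0.677 for co-treated to UVA and 1.12 for co-treated to control. The first and second of these ratios share the UVA libraries, so they are not independent of each other. A sum over the set carries no p-value here, since earlier results of these data were known when the set was chosen. In RNA from whole cultures, a change in the share of cells in S phase and a change in histone mRNA per cell cannot be told apart.

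Small RNAs without a poly(A) tail were lowest in the co-treated libraries, and their control and UVA libraries overlapped. Their list of 12 genes summed to 6.95 to 10.6 CPM in controls, 10.3 to 11.7 under UVA and 5.47 to 5.91 in co-treated libraries, and 5 of the 12 (Rnu11, Rnu4atac, Snord3a, Terc and 1 of 2 genes named Rmrp) were at 0 in every library. Of the 2 tested genes 0 were called between UVA and control cells. Rn7sk, the RNA that holds the elongation factor P-TEFb inactive, gave 128, 91 and 137 counts in controls, 153, 125 and 164 under UVA and 73, 74 and 74 in co-treated libraries. Its co-treated values were below all others. Its log2 fold change was 0.35 for UVA against control (adjusted p = 0.0676), and it was lower in co-treated than in UVA cells at -0.93 ± 0.16 (standard error, SE, here and after every log2 fold change; adjusted p = 0.00684) and than in control cells at -0.57 ± 0.16 (adjusted p = 0.00763), by edgeR's quasi-likelihood test. The call against UVA was lost without co-treated replicate 2 (adjusted p = 0.0755) or 3 (0.0686) and with limma on log2(FPKM + 1) (0.151). Without control replicate 1, Rn7sk was called higher in UVA than in control cells (0.0327) and no longer lower in co-treated than in control cells (0.0618). The part of RNA selection in the histone values was not tested.

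H2B had the highest UVA to control ratio of the 5 classes. It measured 3.71, 4.09 and 4.83 CPM in controls, 10.0, 7.4 and 10.4 under UVA and 5.42, 5.27 and 6.13 in co-treated libraries. The 3 groups did not overlap: UVA was highest, co-treated in the middle and control lowest, with ratios of 2.2, 0.605 and 1.33 in the order UVA to control, co-treated to UVA and co-treated to control. Without H2bc4, its gene with the most counts, the UVA to control ratio was 1.58 and the co-treated to control ratio 0.93, so the middle position of the co-treated group rested on that gene.

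H4, the partner of H3 in the core, measured 2.78, 2.3 and 3.59 CPM in controls, 4.98, 5.31 and 5.75 under UVA and 2.5, 2.31 and 4.36 in co-treated libraries. UVA libraries were above all others, with a UVA to control ratio of 1.85 and a co-treated to UVA ratio of 0.572. Among the co-treated libraries, replicate 3 was well above the other two. H3 measured 1.33, 1.18 and 1.15 CPM in controls, 2.16, 1.79 and 2.4 under UVA and 1.04, 1.27 and 1.21 in co-treated libraries. The UVA libraries were again above all others, at ratios of 1.73 and 0.555. That rested largely on H3c4: without it the UVA to control ratio of H3 was 1.09 and the co-treated to UVA ratio 0.703, and with deposited FPKM in place of CPM the UVA to control ratio was 1.24.

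H1 measured 5.74, 6.05 and 6.07 CPM in controls, 8.24, 7.59 and 6.8 under UVA and 6.7, 6.08 and 5.85 in co-treated libraries. The UVA libraries lay above the rest by a smaller margin, at a UVA to control ratio of 1.27. Without H1f2 the ratio was 0.88, so the direction of the class was that of this 1 gene. H2A differed from the other core histones in that its groups overlapped in every comparison. It measured 0.928, 0.729 and 1.29 CPM in controls, 0.774, 0.987 and 1.25 under UVA and 0.427, 1.33 and 1.44 in co-treated libraries, at a UVA to control ratio of 1.02. Every H2A gene overlaps a gene on the opposite strand, and the strand setting of the counting is not given in the sources used here. The part of this overlap in the H2A values was not tested. The difference between the classes was not tested.

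**Figure D2:**
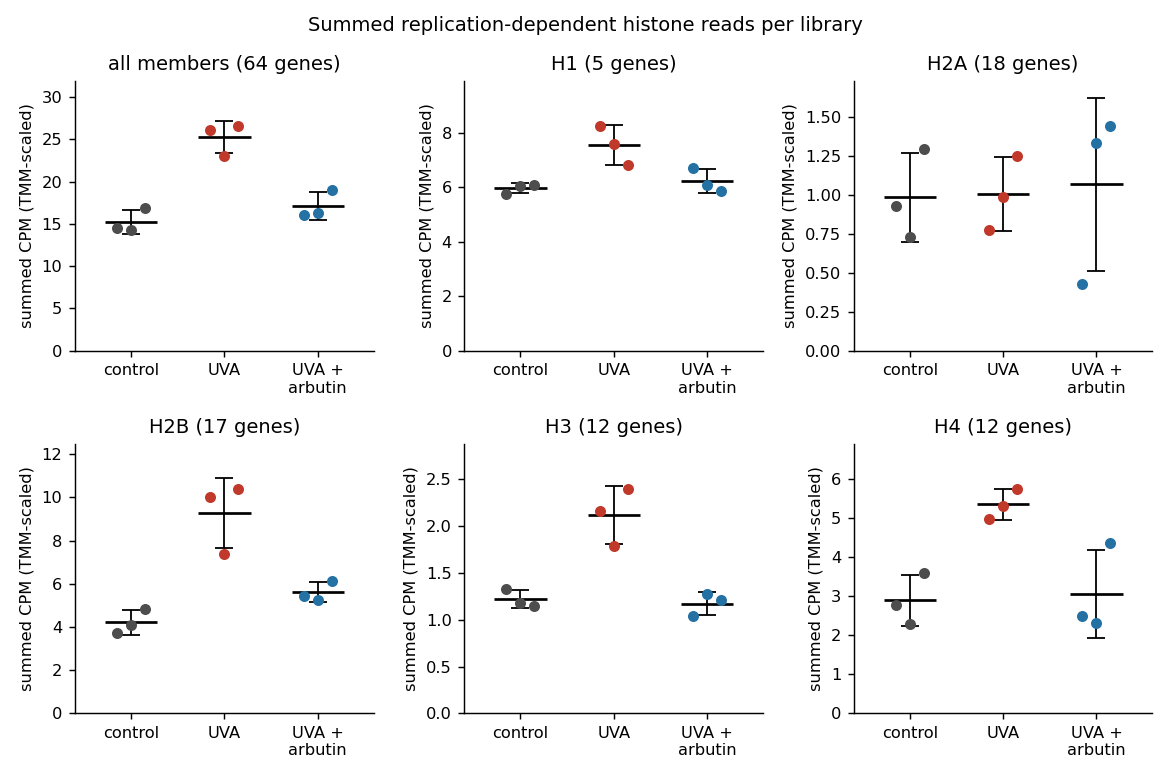
Summed TMM-scaled CPM of the replication-dependent histone genes in each library, for all 64 and by class; points are libraries, lines are group means and bars the SD (n = 3). The UVA libraries lie above the control libraries in every panel except H2A, where the groups overlap with means of 0.983, 1.0 and 1.06 CPM.

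UVA libraries had the highest mean in each of the 3 gene clusters, by different margins. On chromosome 13, 30 genes between 23715220 and 24118834 summed to 10.3 ± 0.433 CPM in controls, 17.3 ± 1.56 under UVA and 12.0 ± 1.69 in co-treated libraries. The other 24 genes of that chromosome, between 21899933 and 22227846, summed to 2.85 ± 0.962, 4.32 ± 0.761 and 2.58 ± 0.786, and there the control and UVA libraries overlapped. H4c9 alone held 52 of the 163 control counts and 128 of the 237 UVA counts of these 24 genes. The 10 genes on chromosome 3, between 96127181 and 96177448, summed to 2.13 ± 0.445, 3.64 ± 0.35 and 2.52 ± 0.948 (SD, n = 3 throughout). Every UVA library of that cluster was above every control library, while co-treated and UVA libraries overlapped. H2bc21 alone held 79 of its 120 control counts and 131 of its 199 UVA counts. The clusters were not summed without H4c9 or H2bc21, so a rise shared by their other genes was not shown.

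By transcript model, the ratio of UVA to control was 1.53 for genes with a long extension, 1.64 for those with a short end and 2.02 for those without a match. The last ratio rested on H2bc4 and H2bc21: it was 1.21 without H2bc4 and 0.774 without both, alternatives added after the data were seen. The UVA and control libraries did not overlap for genes with a long extension (10.1 ± 0.596 and 15.4 ± 0.447 CPM) nor for those with a short end (1.67 ± 0.172 and 2.74 ± 0.401). The matching co-treated levels were 10.5 ± 0.736 and 1.49 ± 0.532 CPM. Genes annotated with a short end and genes annotated with a long one thus both had their highest sum in UVA libraries. Of the short-end counts, H4c8 alone held 0, 4 and 2 of 27, 28 and 39 in controls. Under UVA it held 11, 10 and 13 of 52, 37 and 61. The short-end genes were not summed without H4c8, so a separation of their groups without that gene was not shown.

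Single genes were tested with edgeR's quasi-likelihood test over all 9 libraries, with Benjamini-Hochberg adjustment over the 14151 genes that passed a filter on low counts. Only 11 of the 64 histone genes passed it: H1f2, H1f3, H1f4, H2bc4, H2bc6, H2bc21, H3c4, H4c4, H4c8, H4c9 and H4c14. H4c8 reached the filter's level in the UVA libraries alone and H3c4 in 2 UVA and 1 co-treated library, so both had to be high there to be tested. The other 53 genes summed to 4.55 CPM in controls, 5.78 under UVA and 3.9 in co-treated libraries, and their groups overlapped in each comparison.

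Of the 11, 5 were called higher in UVA than in control cells at an adjusted p below 0.05 (H1f2, H2bc4, H3c4, H4c8 and H4c9) and 0 lower. Over all tested genes, 14.7% were called higher and 14.6% lower in this comparison, 29.3% in all. Without H3c4 and H4c8, which needed high UVA values to be tested, 3 of the other 9 were called higher. The log2 fold changes of the 11 ran from -0.26 to 2.83.

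H2bc4 encodes a core histone H2B and lies on chromosome 13 at 23868182-23876891 on the plus strand, with an annotated transcript of 2 exons. It had 12, 5 and 14 counts in controls, 68, 50 and 73 under UVA and 28, 33 and 54 in co-treated libraries. UVA libraries were highest, control libraries lowest, and no groups overlapped. Its means were 0.549 ± 0.233, 3.5 ± 0.362 and 2.2 ± 0.685 CPM (SD, n = 3). The log2 fold change for UVA against control was 2.65 ± 0.32 (SE), a 6.28-fold rise (adjusted p = 2.31e-07, edgeR).

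H3c4, a core histone H3 gene at 23759937-23761185 on chromosome 13 (plus strand), had 5, 1 and 1 counts in controls, 10, 17 and 24 under UVA and 2, 11 and 5 in co-treated libraries. Every UVA library was above every control library, and co-treated replicate 2 fell among the UVA values. In CPM the group means were 0.131 ± 0.138, 0.934 ± 0.338 and 0.345 ± 0.264 (SD, n = 3), with an adjusted p of 0.0012 for UVA against control by edgeR. Its log2 fold change was 4.01 without control replicate 1 and 2.40 without control replicate 3, in place of 2.83.

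H4c8, a core histone H4 gene at 23715220-23715689 on chromosome 13 (plus strand), had 0, 4 and 2 counts in controls, 11, 10 and 13 under UVA and 4, 0 and 6 in co-treated libraries. The UVA libraries were the highest, and 1 library of each other group had none. Its log2 fold change was 2.47 ± 0.72 (95% interval 0.99 to 3.95, adjusted p = 0.00999, edgeR). Leaving out control replicate 1 gave an adjusted p of 0.0621 and leaving out control replicate 3 one of 0.0537. The log2 fold change was lowest without control replicate 1, at 1.96, and highest without control replicate 2, at 3.42.

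H4c9, another H4 gene, lies in the chromosome 13 cluster at lower coordinates (22224806-22225532, minus strand). It had 21, 8 and 23 counts in controls, 35, 36 and 57 under UVA and 8, 16 and 39 in co-treated libraries. The co-treated libraries spread across the range of both other groups. Its log2 fold change for UVA against control was 1.33 ± 0.39, a 2.52-fold rise (adjusted p = 0.0101, edgeR). The adjusted p was 0.0707 without control replicate 2 and 0.0518 without UVA replicate 3.

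H1f2, a linker histone gene at 23922791-23924350 on chromosome 13 (plus strand) and the best covered of the set, measured 4.35, 4.37 and 4.26 CPM in controls, 6.25, 5.92 and 6.15 under UVA and 5.0, 4.69 and 4.69 in co-treated libraries. Its groups did not overlap in any comparison, with co-treated between the other two. It was 1.41-fold higher in UVA than in control cells, at a log2 fold change of 0.50 ± 0.15 (adjusted p = 0.0147, edgeR). Neither difference from the co-treated group was called: it was -0.35 ± 0.15 against UVA (adjusted p = 0.701) and 0.15 ± 0.16 against control (adjusted p = 0.547).

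**Figure D3:**
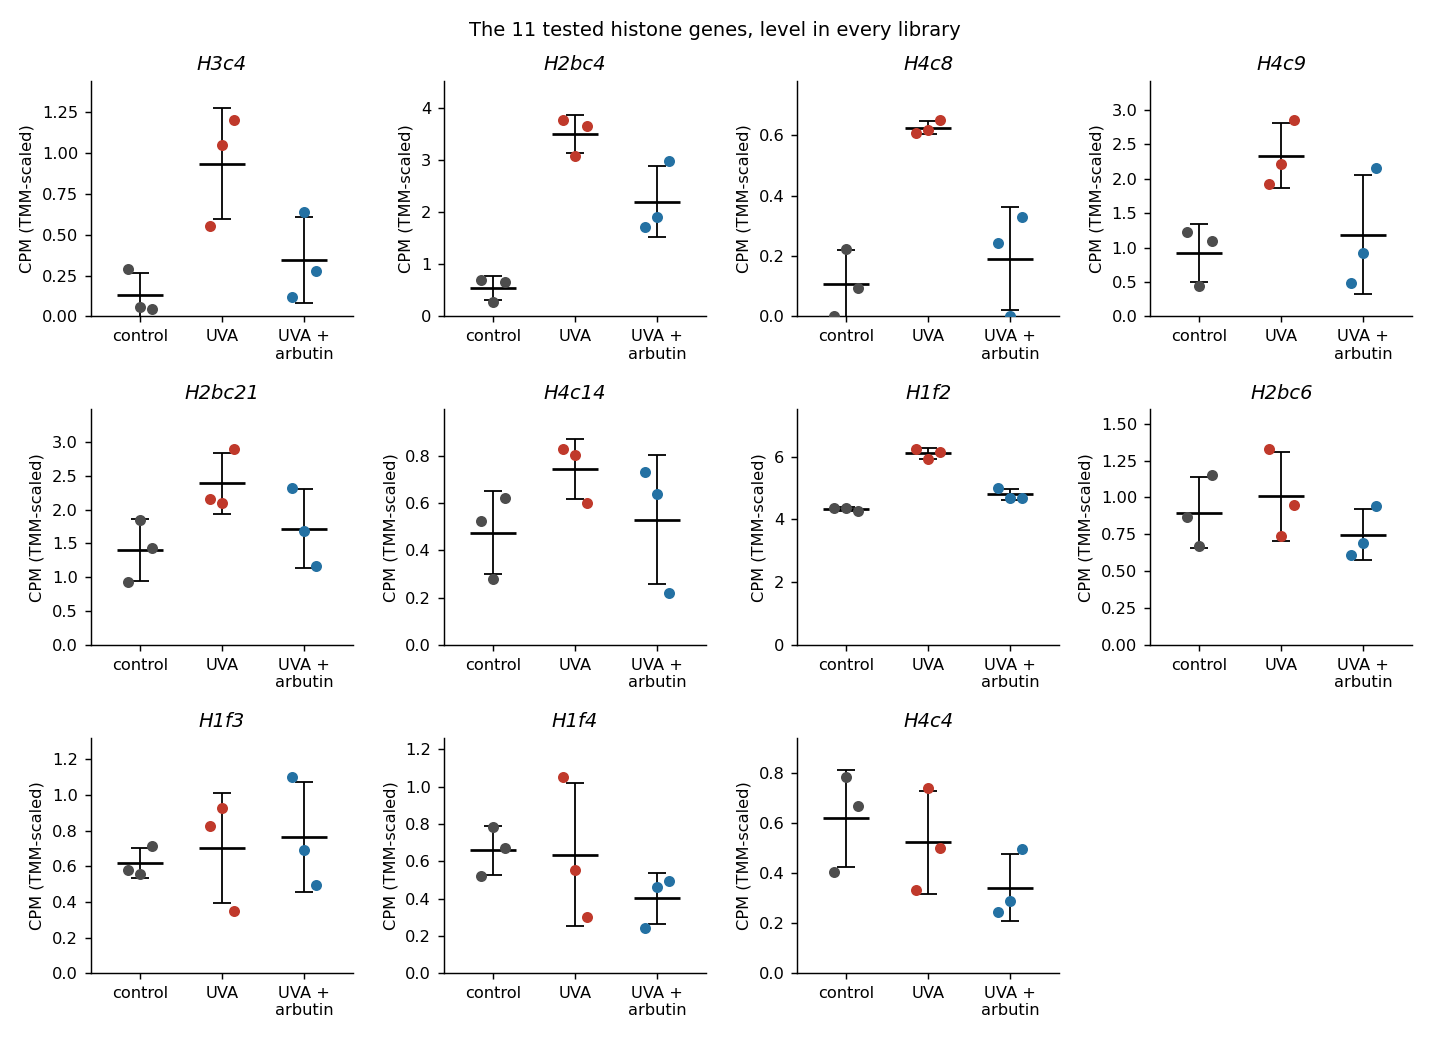
TMM-scaled CPM of the 11 tested histone genes in every library, in order of their log2 fold change for UVA against control; points are libraries, lines are group means and bars the SD (n = 3), cut off at the axis limits. In H2bc4 and H1f2 the co-treated libraries lie between the control and UVA libraries, while in H4c14, H1f3, H1f4, H2bc6 and H4c4 the control and UVA libraries overlap.

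The other 6 tested genes did not pass the threshold for UVA against control. H2bc21, an H2B gene of the chromosome 3 cluster, had 16, 33 and 30 counts in controls, 39, 34 and 58 under UVA and 38, 29 and 21 in co-treated libraries. Its UVA libraries were above its control libraries in CPM, at a log2 fold change of 0.76 ± 0.3 and an adjusted p of 0.0565 by edgeR. The adjusted p was 0.0372 without control replicate 2. H4c14, also on chromosome 3, gave 0.62 ± 0.48, and H2bc6, H1f3, H1f4 and H4c4 gave 0.16, 0.14, -0.07 and -0.26. Their control and UVA libraries overlapped.

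The co-treated and UVA groups differed in few genes of any kind, and no histone gene was called between them. Of the 11 tested genes 0 were called higher and 0 lower by edgeR, 0 by DESeq2, and 5 had an unadjusted p below 0.05 with edgeR, as had 6.76% of all tested genes. The 5 are the genes called between UVA and control cells, which share the UVA libraries, and they include H3c4 and H4c8. Over all tested genes 0.0353% were called in either direction (0.0283% higher and 0.00707% lower). The log2 fold change was -0.66 ± 0.26 for H2bc4 (adjusted p = 0.666), -1.41 ± 0.54 for H3c4 (0.663), -1.66 ± 0.66 for H4c8 (0.666) and -0.96 ± 0.38 for H4c9 (0.666). The interval for H2bc4 ran from -1.2 to -0.13 and that for H4c8 from -3.01 to -0.32. With 1 library left out, H3c4 ran from -2.17 (without co-treated replicate 2) to -1.03, H4c8 from -2.33 (without co-treated replicate 3) to -1.10, and H4c9 from -1.71 (without co-treated replicate 3) to -0.60 (without co-treated replicate 1).

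Against control, 1 of the 11 tested genes was called higher in co-treated cells and 0 lower, beside 13.0% and 12.9% of all tested genes (25.8% in either direction). That gene was H2bc4, at a log2 fold change of 1.99 ± 0.34, 3.96-fold higher (95% interval 1.28 to 2.69, adjusted p = 5.83e-05, edgeR). H3c4 gave 1.42 ± 0.77 (adjusted p = 0.188), H4c8 0.81 ± 0.9 (0.561) and H4c9 0.38 ± 0.43 (0.566). The intervals of H4c8 (-1.04 to 2.66) and H4c9 (-0.5 to 1.25) spanned 0, and their width allows differences of either sign. With 1 library left out, H3c4 ran from 0.65 (without co-treated replicate 2) to 2.59 (without control replicate 1), H4c8 from 0.14 (without co-treated replicate 3) to 1.76 (without control replicate 2), and H4c9 from -0.38 (without co-treated replicate 3) to 0.74 (without co-treated replicate 1).

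**Figure D4:**
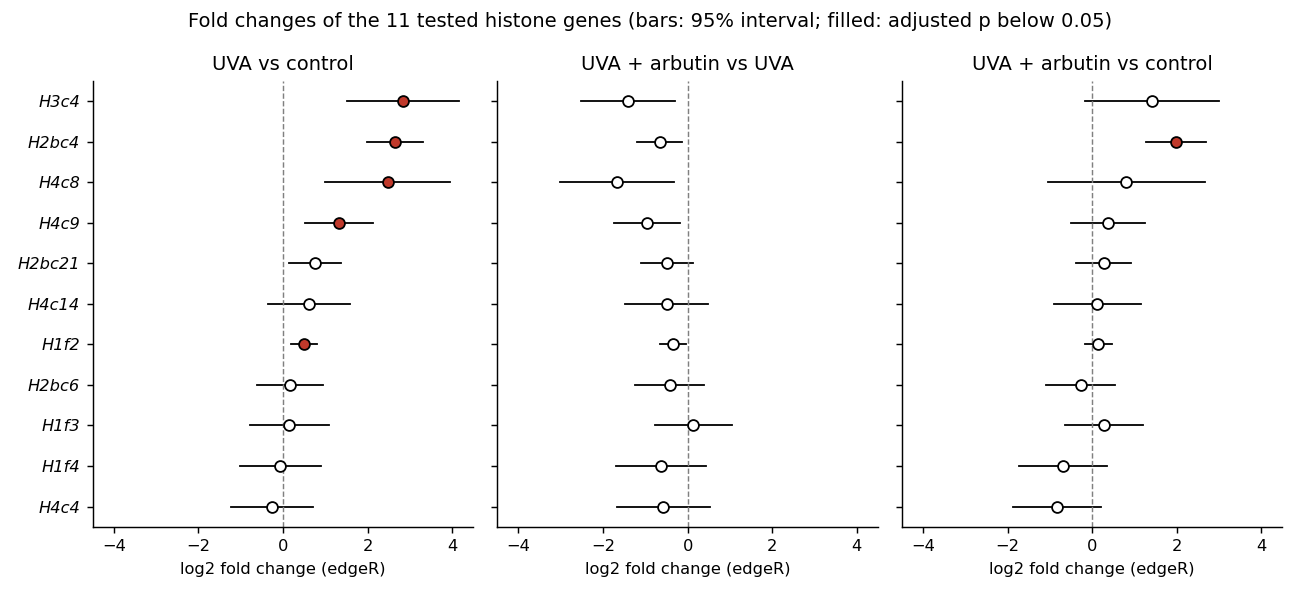
Log2 fold changes of the 11 tested histone genes in the 3 comparisons (edgeR), with 95% intervals as bars and filled points for an adjusted p below 0.05; the panels share libraries of the groups they name. In the first panel 5 genes are filled, for co-treated against UVA 0 and for co-treated against control 1, H2bc4.

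Below the filter, 29 further genes had at least 10 counts, which makes 40 with the tested ones. UVA libraries had the higher mean in 24 of the 40 and control libraries in 16, so 60.0% were higher, beside 50.5% of all genes with at least 10 counts. In 11 of the 40 all UVA libraries were above all control libraries (27.5%, beside 16.7% of all genes), and in 3 they were all below (7.5%, beside 16.4%). The 11 were H1f2, H2bc4, H2bc21, H3c4, H4c8 and H4c9 with H2ac7, H2bc7, H2bc8, H2bc23 and H3c15. H2bc8 had 2, 8 and 3 counts in controls, 10, 14 and 13 under UVA and 4, 6 and 7 in co-treated libraries. H3c15 had 0, 5 and 1, then 6, 6 and 8, then 5, 0 and 5. Neither passed the filter. With a minimum of 10 counts over all libraries in its place, the log2 fold change for UVA against control was 1.53 ± 0.63 for H2bc8 (adjusted p = 0.0813, edgeR) and 1.70 ± 0.95 for H3c15 (0.235). H2bc8 was called higher without control replicate 2 (0.0149) or UVA replicate 1 (0.0470). H2bc23 had 0 counts in each control library, 6, 1 and 5 under UVA and 1, 0 and 1 in co-treated libraries. With that minimum it was called higher (0.0290), and without any filter it was not (0.0560). It reached the minimum only through its UVA counts, so it had to be high there to be tested with it. Of its stretches of 50 transcript bases, 97.3% also occur in another gene.

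The 3 genes with lower UVA libraries were H1f5, H2ac15 and H3c6. The linker histone gene H1f5 had 5, 6 and 7 counts in controls, 2, 3 and 0 under UVA and 6, 2 and 3 in co-treated libraries. H3c6 had 5, 3 and 3, then 1, 1 and 1, then 3, 3 and 2, so its lowest values were in UVA libraries, opposite to H3c4 of the same class. H2ac15 had 1, 1 and 5 counts in controls, 0 in each UVA library and 0, 6 and 1 in co-treated libraries. Without its control libraries it would not have reached 10 counts, so it had to be high there to be counted. It overlaps an unnamed gene on the other strand. None of the 3 passed the filter or was called with the minimum of 10 counts. The log2 fold change for UVA against control was then -1.70 ± 0.95 for H1f5 (adjusted p = 0.237, edgeR). It was -1.72 ± 1.14 for H3c6 (0.343) and -4.21 ± 1.85 for H2ac15 (0.108).

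In the other 26 genes with at least 10 counts the control and UVA libraries overlapped. They include genes with the highest FPKM of their class after those described. H3c11 had 4, 5 and 7 counts in controls, 8, 2 and 1 under UVA and 4, 1 and 2 in co-treated libraries, and H3c8 had 3, 2 and 5, then 5, 1 and 1, then 1, 4 and 2. H4c18 had 4, 3 and 3, then 4, 11 and 2, then 1, 4 and 1. Their groups overlapped, and 1 UVA library held the highest count in H3c11 and in H4c18. H2ac10, the H2A gene with the highest mean FPKM (0.266), had 0, 4 and 5 counts, then 2, 0 and 3, then 0, 3 and 1. No H2A gene had over 25 counts in the 9 libraries together.

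Co-treated libraries had the lower mean in 31 of the 40 genes when set against UVA. The mean was higher in 22.5% of the 40, beside 49.6% of all genes with at least 10 counts. All co-treated libraries were below all UVA libraries in 9 of the 40 (22.5%, beside 5.27% of all genes): H1f2, H2bc4, H2bc7, H2bc8, H2bc9, H2bc22, H2bc23, H3c15 and H4c8. They were above in 2 (5.0%, beside 4.98%), H2bc14 and H3c6. H2bc22 and H2bc23 would not have reached 10 counts without their UVA libraries, nor H2bc14 without its co-treated libraries. Against control, the co-treated mean was higher in 18 and lower in 22. The groups did not overlap in 2 genes in each direction (5.0% each way, beside 15.5% and 15.7%), H1f2 and H2bc4 higher and H1f4 and H2bc13 lower. H2bc13 would not have reached 10 counts without its control libraries.

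H2A and H2B genes often stand head to head and share the sequence between their starts, which allows each H2A gene to be set beside its H2B neighbour. There were 13 such pairs within 500 bases, 175 to 305 bases apart. The H2B gene had more counts in 10 pairs, the H2A gene in 2, and 1 pair was at 0 on both sides. In all, 828 counts fell on the H2B genes and 138 on the H2A genes of these pairs. Most of the 828 fell on H2bc4 (337) and H2bc21 (298). H2bc4 and H2ac6, 250 bases apart, had 31 and 3 counts summed over the control libraries, 191 and 17 over the UVA libraries and 115 and 5 over the co-treated libraries. Both genes of this pair had their highest sum in UVA libraries. For H2ac6 the libraries held 1, 2 and 0 counts in controls, 5, 1 and 11 under UVA and 0, 2 and 3 after co-treatment. The groups of H2ac6 overlapped in every comparison. H2bc21 and H2ac20, 238 bases apart on chromosome 3, had 79 and 8, then 131 and 6, then 88 and 3. H2bc8 and H2ac8, 175 bases apart, had 13 and 8, then 37 and 4, then 17 and 11. By library, H2ac8 had 0, 3 and 5 counts in controls, 0, 3 and 1 under UVA and 2, 4 and 5 after co-treatment. Its groups overlapped in every comparison. These counts are not corrected for the length of the transcripts. Each H2A gene of these pairs also overlaps a gene on the opposite strand, while none of their H2B genes overlaps another gene. The part of this overlap in the counts was not tested.

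The genes that drive histone transcription and 3′ processing moved by small amounts. Of 38 in the list 37 were tested, with a median log2 fold change of 0.03 for UVA against control. Of these 8 were called higher and 2 lower in UVA than in control cells, 21.6% and 5.4%, beside 14.7% and 14.6% of all tested genes. Rnu7, the U7 RNA itself, was at 0 in all libraries. Slbp measured 96.9, 96.8 and 88.1 CPM in controls, 102, 105 and 105 under UVA and 99.7, 98.4 and 107 in co-treated libraries. Its log2 fold change for UVA against control was 0.15 ± 0.05 (adjusted p = 0.0261, edgeR), and the call was lost without control replicate 3 (adjusted p = 0.208) or with limma on log2(FPKM + 1) (0.0858). Without UVA replicate 2 or 3 its adjusted p was 0.0699 or 0.0643. Npat, the coactivator of histone genes, was at 0.0 ± 0.06 on the log2 scale (adjusted p = 0.992), and E2f1 at 0.07 ± 0.07 (0.459). Ccne2, the cyclin that activates CDK2 toward NPAT at S phase entry, rose by 0.40 ± 0.06 (adjusted p = 1.89e-05), and was above control in co-treated cells at 0.29 ± 0.07 (0.00126). The list had 0 calls between co-treated and UVA cells.

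In UVA against control cells, genes of DNA replication were called at shares near those of all tested genes. Of 44 tested, 8 were called higher (18.2%, beside 14.7% of all) and 5 lower (11.4%, beside 14.6%) in UVA than in control cells, 0 between co-treated and UVA cells, and 5 higher (11.4%, beside 13.0%) and 10 lower (22.7%, beside 12.9%) in co-treated than in control cells. The replication clamp gene Pcna rose by 0.17 ± 0.04 (adjusted p = 0.00225) and the ribonucleotide reductase subunit Rrm2 by 0.28 ± 0.04 (1.01e-05), while Rpa1, of the single-strand DNA binding complex, fell to a log2 fold change of -0.30 ± 0.04 (4.86e-07), all by edgeR. Among 22 genes of G2 and mitosis 5 were called higher (22.7%) and 4 lower (18.2%) in UVA cells, beside the same 14.7% and 14.6%. Cdk1 was at 0.19 ± 0.04 (adjusted p = 0.000684) and Cenpf at -0.22 ± 0.04 (0.00024), and the proliferation marker Mki67 at -0.14 ± 0.04 (0.0117, with the call lost without control replicate 2 or UVA replicate 2). The p53 target Cdkn1a, which blocks entry to S phase, measured 92.7 ± 2.95 CPM in controls, 183 ± 27.1 under UVA and 178 ± 19.6 in co-treated cells (SD, n = 3).

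The linker histone gene H1f0, not a gene of the set, was lower in both irradiated groups. It belongs to a list of 17 histone genes outside the set, most of them replication-independent variants. Of the 12 tested, 0 were called higher and 3 lower (25.0%, beside 14.6% of all tested genes) in UVA than in control cells. H1f0, the linker histone of resting and differentiated cells, measured 525, 547 and 524 CPM in controls, 336, 321 and 280 under UVA and 300, 285 and 266 in co-treated libraries. All control libraries were above all others. It fell by 0.77 on the log2 scale with UVA (SE 0.05, adjusted p = 1.43e-12, edgeR), where the linker histone gene H1f2 rose by 0.50, and its difference between co-treated and UVA cells was not called (-0.14 ± 0.05, adjusted p = 0.634). Leaving out UVA replicate 3 gave -0.21 for that comparison, with an adjusted p of 0.0383. Macroh2a2 fell by 0.32 (adjusted p = 0.000998) and H1f10 by 0.42 (0.0284). The call of H1f10 was lost when any 1 of the 6 control and UVA libraries was left out (adjusted p from 0.0563 without UVA replicate 3 to 0.0703 without control replicate 3). For H2ax, H2az1, H3f3a and H3f3b the log2 fold changes for UVA against control lay between -0.08 and 0.11 and none was called. In co-treated against control cells the list had 0 genes called higher and 2 lower (16.7%, beside 12.9% of all tested genes), H1f0 and H2az1. H2az1 was at -0.11 ± 0.04 there (adjusted p = 0.0495, edgeR), a call kept in 5 of 15 alternatives.

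**Figure D5:**
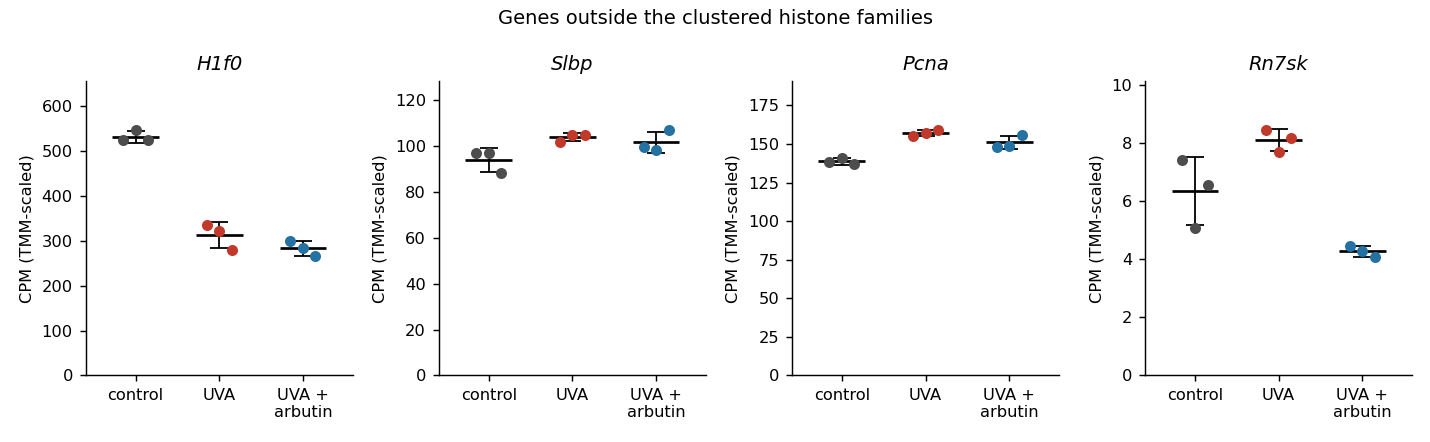
TMM-scaled CPM in every library of H1f0 (a replication-independent linker histone), Slbp (stem-loop binding protein), Pcna (replication clamp) and Rn7sk (a small RNA without a poly(A) tail); points are libraries, lines are group means and bars the SD (n = 3). H1f0 is lower in both irradiated groups, and Rn7sk is lowest in the co-treated libraries at 73 to 74 counts.

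Histone chaperones, which carry new histones to DNA, had 4 of 23 genes called higher (17.4%) and 3 lower (13.0%) in UVA cells, beside 14.7% and 14.6% of all tested genes. Npm1 was at 0.21 ± 0.04 (adjusted p = 6.16e-05) and Nap1l1 at 0.19 ± 0.04 (0.000203), while Ssrp1, of the FACT complex, was at -0.14 ± 0.04 (0.0048), by edgeR. The list had 0 calls between co-treated and UVA cells. In co-treated against control cells it had 3 higher (13.0%, the share of all tested genes) and 5 lower (21.7%, beside 12.9%).

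The label of the cells was checked against markers. All 11 fibroblast markers were above 0, and their sum was 12300 CPM in controls, 8700 under UVA and 8660 in co-treated libraries. Of 10 tested markers, 8 were called lower and 1 higher in UVA than in control cells, beside 14.6% and 14.7% of all tested genes. In co-treated against control cells 8 were also called lower and 1 higher, beside 12.9% and 13.0%. Immune markers summed to 4.21 to 6.05 CPM per library, epithelial to 1.4 to 4.59, endothelial to 2.69 to 5.91 and muscle to 0.812 to 3.24, with Cd3e, Epcam and Myod1 at 0. The part of the fibroblast marker change in the histone values was not tested.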

How the data were processed

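RNA sequencing of 9 NIH/3T3 libraries was analysed from 1 table. Per the file headers, the authors deposited a raw count and an FPKM value per gene and library, with mm39 coordinates and exonic sizes. The deposited FPKM equalled count per exonic kilobase and 1e6 counts in 510219 of 510219 values (within 0.01). Tools named in the submitters' processing notes were HTSeq 0.6.1, HISAT2 2.2.1, cutadapt 1.9.1 and bcl2fastq 2.20.0.422; strand setting and annotation release were not given in the sources used here. Control columns carry the prefix NC, assigned by elimination against the titles.

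Counts were tested with edgeR 4.0.16 in R 4.3.3 (filterByExpr, TMM factors 0.992 to 1.007, quasi-likelihood F-test, two-sided) in 1 fit on group over 9 libraries and 14151 genes. Alternatives were DESeq2 1.42.0, limma 3.58.1, other filters and scalings, a replicate block, and each library left out. Genes without a symbol (2639) were kept. The fit was tested on simulated data.

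The 64 genes and all lists were chosen with earlier results of these data known. Named were genes called in any comparison, the 3 genes per class with the highest mean FPKM, and up to 4 genes of each list with the smallest p, beside 13 set genes; only part of them are described. Histone genes named because their groups did not overlap, or as neighbours in a pair, were chosen after their values were seen. Stem-loops were read from GENCODE vM21 transcripts matched by Ensembl gene ID (64 of 64), promoters from RefSeq. Replicate pairs differed by more than counting noise (chi-square per degree of freedom 2.24 to 4.82).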

Additional observations from a re-analysis of the deposited data

How the results depend on the processing

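The alternatives covered another tool, filter, scaling and pseudocount, the replicate block, only the libraries compared, and each library left out. Of 96 recomputed counts of called histone genes 93 stayed within 1.5 times. In co-treated against control 2 genes were called higher (H2bc4 and H2ac7) without a filter and with a minimum of 10 counts. That was 2 of 57 without a filter, beside 1569 of all 29538 genes, and 2 of 40 with the minimum, beside 1714 of all 20228. Without H3c4 and H4c8, added after the data were seen, 3 of 9 were called higher in UVA than in control cells. H2ac7 had 0 counts in every control library, 3, 3 and 2 under UVA and 0, 2 and 11 in co-treated libraries. It reached the minimum of 10 counts only through its co-treated libraries. With 1 library left out, 4 to 6 of 11 or 12 tested histone genes were called higher in UVA than in control cells. Of all tested genes 1569 (of 14454) to 1907 (of 14461) were. In co-treated against control cells 1 histone gene was called higher, beside 1373 (of 14454) to 1722 (of 14502) of all. In the other direction or between co-treated and UVA cells 0 histone genes were called. The ratio of the summed level then ran from 1.61 to 1.75 for UVA to control, from 0.64 to 0.698 for co-treated to UVA and from 1.06 to 1.19 for co-treated to control. Without the 5 called genes, also added, these ratios were 1.28, 0.713 and 0.91, and control and UVA libraries overlapped. Without H2bc4, also added, they were 1.48, 0.685 and 1.01. Of 225 recomputed sums, by class and model included, 22 moved by more than the spread between replicates. Beside those given with their class they include H1 without H1f2 for co-treated to UVA (0.988) and to control (0.87), H3 for co-treated to control without H3c4 (0.762) and by FPKM (0.784), genes without a match for co-treated to control without H2bc4 (0.972), and the classes cut to tested genes, H2B for co-treated to control (1.64) and H3, which is then H3c4 alone (7.11 for UVA to control, 0.369 for co-treated to UVA and 2.63 for co-treated to control).

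The labels give the groups the same replicate numbers, but libraries with the same number did not deviate together (r between -0.009 and 0.076). With a replicate block 5 of 11 tested histone genes were called higher in UVA than in control cells, beside 2180 of all 14151. Between co-treated and UVA cells 0 were called, beside 16 higher and 3 lower of all. In co-treated against control cells 1 was called higher, beside 1969 of all. The histone counts were the same without the block. For H4c9 limma on log2(FPKM + 0.1) gave an adjusted p of 0.0624. Depth limits single genes: 53 of 64 did not pass the filter on low counts.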
